A study of Arabidopsis thaliana with 30 samples.

Results

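Family 1 glycosyltransferases, named UGT, are enzymes that take a sugar from a UDP-sugar donor and attach it to a small molecule such as a hormone, a flavonoid, a lignin precursor, a defence acid or a foreign compound. The attached sugar makes the acceptor more soluble and usually stores, inactivates or detoxifies it, and in leaves these enzymes are known for making flavonoid sunscreens and for handling reactive stress products. The genes described here were the 44 whose Affymetrix probe set was matched to exactly 1 gene with a symbol of UGT and digits, leaving out UGT78D2, UGT84A1 and UGT73B5, among 22746 probe sets in all. Each was measured by 1 probe set, and 13513 probe sets were matched to exactly 1 gene. Genes were taken by name, but this choice was made with earlier results of these data known. The RefSeq table held lists 58 genes with such a symbol, so part of the family is not analysed here.

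The study asked how MBS1 and MBS2, small zinc-finger proteins of the singlet oxygen response, bear on the reaction of Arabidopsis thaliana seedlings to light stress. All 30 arrays came from seedlings in the Col-0 background, 12 days old, harvested without the root after growth on sucrose agar and 7 days at a dim 10 µE per square metre and second, 3 biological replicates in each of 10 groups. The lines were flu, a mutant that overaccumulates a chlorophyll precursor in the dark and forms singlet oxygen on return to light; mbs1-1, mutated in MBS1; RNAi-MBS2/mbs1-1, the same mutation with RNA interference against MBS2; 35S:MBS1, which overexpresses MBS1 from the viral 35S promoter active in most tissues; and wild type (WT). The 3 h groups had received 3 h of high light at 1000 µE per square metre and second following 3 h of darkness. No high light was given at 0 h, and whether those samples were taken before or after a dark period is not known here. A 3 h against 0 h comparison therefore holds light and any clock change together, and darkness as well if the 0 h samples were taken before it.

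Levels are log2 signals after RMA normalization, and differences are log2 fold changes ± SE from limma over all 30 arrays (n = 3 arrays per group), with Benjamini-Hochberg adjustment over all 22746 probe sets. A gene was called at an adjusted p under 0.05, and "rose" and "fell" are used of called genes only. Whether replicates came from separate plates is not given in the sources used here, and the small number of arrays limits the precision of each value. Array means lay between 6.7 and 6.78 but for mbs1-1 3 h replicate 1 (6.96) and WT 0 h replicate 1 (6.88). The leaf genes RCA, LHCB4.1 and LHCB4.2, the 3 of 25 listed green markers matched, were at 10.43 to 14.05. Only 2 of 23 root markers were matched, both root hair expansins. EXPA7 was at 2.63 to 3.32 and EXPA18 at 4.21 to 5.98. Whether the samples were free of root was not tested beyond these genes. In whole shoots, fewer cells of a type and less RNA per cell cannot be told apart. The UGT genes covered a wide range of mean signal, 3.17 to 12.26, and 12 of the 44 had a mean under 5, where a probe set may be near background and detection was not tested.

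The first comparison was 3 h against 0 h in each line. In WT, the cytokinin-glucosylating UGT73C1, the flavonol rhamnosyltransferase UGT78D1 and the UGT76E pair UGT76E11 and UGT76E12 rose, while UGT85A4, UGT88A1, UGT72E1 and the abscisic acid glucosyltransferase UGT71C5 fell. In all, 24 of 44 genes were called in WT, 13 higher and 11 lower, which is 54.5% against 45.5% of all probe sets (higher 29.5% against 21.1%, lower 25% against 24.4%). By at least 1 on the log2 scale 14 genes changed (16.7% of all probe sets did so). The median change was -0.13 over the UGT genes and -0.07 over all probe sets, and without WT 0 h replicate 1 it was 0.06 over the UGT genes.

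Other measures also differed between the times, the green markers most. The mean level of the 3 green markers was 12.45 to 12.48 in WT at 3 h and 13.49 to 13.57 at 0 h, and in flu 11.75 to 12.28 at 3 h and 13.32 to 13.56 at 0 h. That of the 2 root markers was 3.88 to 3.99 in WT at 3 h and 3.95 to 4.51 at 0 h, and in flu 3.61 to 3.86 at 3 h and 4.02 to 4.28 at 0 h. On the actin control, 3' probes exceeded 5' probes by 6.61 to 6.82 in WT at 3 h and by 6.04 to 6.39 at 0 h, while the gap for GAPDH overlapped. The actin gap was 6.93 to 6.98 in flu at 3 h and 6.13 to 6.56 at 0 h. The signal of the ribosomal RNA control was 4.18 to 4.48 in WT at 3 h and 5.02 to 5.17 at 0 h, and in flu 4.27 to 4.49 at 3 h and 4.80 to 5.31 at 0 h. It was also lower at 3 h without overlap in RNAi-MBS2/mbs1-1 (4.03 to 4.37 at 3 h and 4.82 to 5.44 at 0 h). Their part in the UGT changes was not tested.

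UGT73C1, which can put glucose on zeatin-type cytokinins in vitro, read 7.15, 6.93 and 7.09 in WT at 3 h, against 3.68, 4.0 and 3.43 at 0 h. Its change was 3.35 ± 0.30 (adjusted p = 6.42e-10), with 0 h arrays under 5, where signal may be near background and a change may be understated. UGT76E11, an enzyme of a subfamily that acts on jasmonates and flavonoids, read 10.59, 10.28 and 10.37 at 3 h, against 7.77, 7.72 and 7.78 at 0 h (2.66 ± 0.21, adjusted p = 1.17e-10). Both genes were far below their 3 h level on every 0 h array. Its neighbour UGT76E12 read 6.85, 7.63 and 7.39 at 3 h, against 4.75, 5.27 and 5.48 at 0 h (2.12 ± 0.38, adjusted p = 4.19e-05). UGT78D1 read 13.08, 13.11 and 13.25 at 3 h, against an already strong signal of 11.37, 11.36 and 11.08 at 0 h (1.88 ± 0.19, adjusted p = 7.27e-09). In each of these genes the lowest 3 h array lay above the highest 0 h array.

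UGT85A4 had the deepest fall in WT, with 6.58, 6.51 and 6.54 at 3 h, against 9.41, 9.36 and 9.29 at 0 h (-2.81 ± 0.14, adjusted p = 1.76e-14). UGT88A1 read 9.74, 9.74 and 9.43 at 3 h, against 11.75, 11.64 and 11.38 at 0 h (-1.95 ± 0.15, adjusted p = 5.77e-11). UGT72E1, which glucosylates the aldehyde precursors of lignin, read 6.75, 7.21 and 6.85 at 3 h, against 8.68, 8.42 and 8.94 at 0 h (-1.74 ± 0.17, adjusted p = 5.35e-09). UGT71C5 read 7.11, 7.5 and 7.25 at 3 h, against 9.14, 8.70 and 8.68 at 0 h (-1.56 ± 0.15, adjusted p = 4.71e-09). None of these falls had overlapping arrays, and the replicates of UGT85A4 lay closest together.

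**Figure D1:**
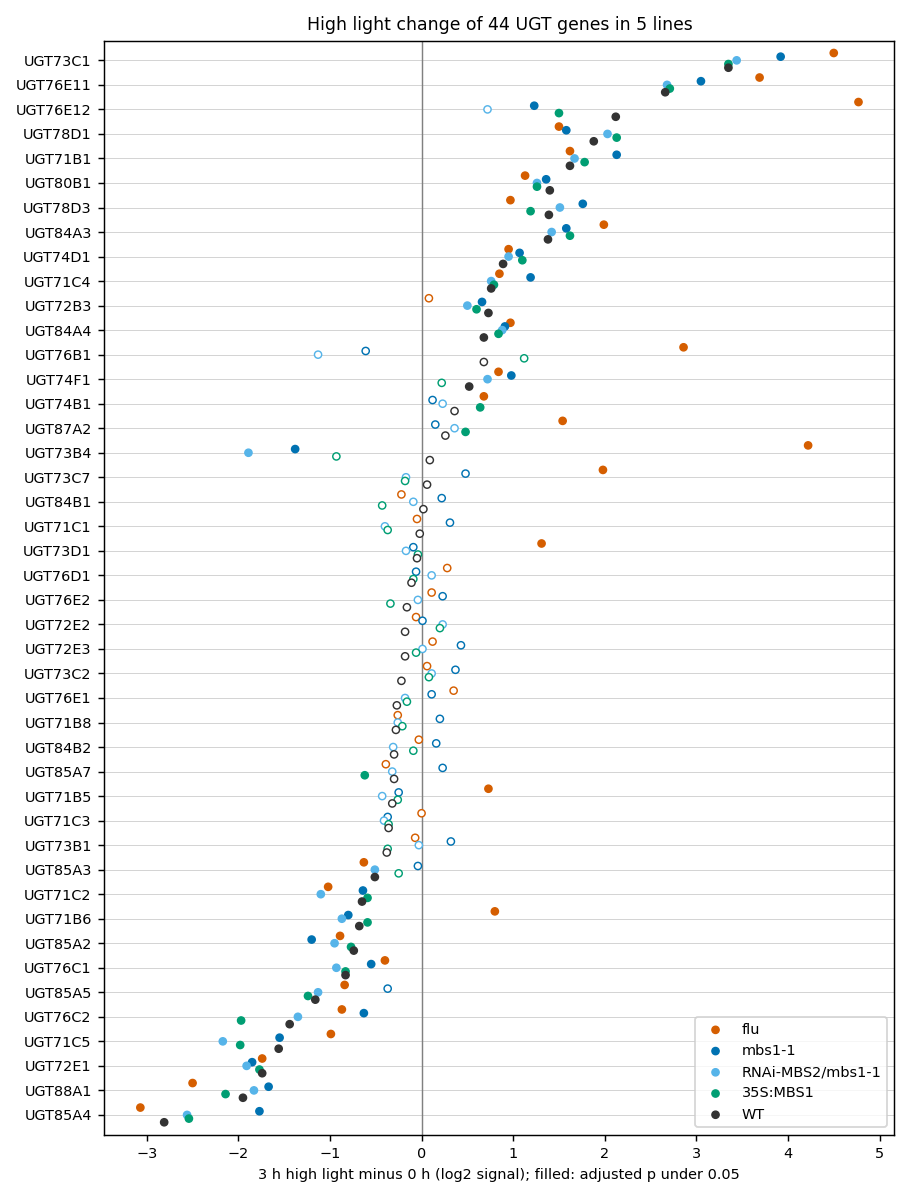
High light change (3 h minus 0 h, log2 signal, x axis) of the 44 UGT genes (rows, ordered by the change in WT) in the 5 lines (colours); filled points passed an adjusted p under 0.05. In WT the genes run from UGT73C1 (3.35) to UGT85A4 (-2.81), and flu stands far to the right of the other lines for UGT73B4 (4.22) and UGT76E12 (4.77).

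Of the 44, 10 rose in all 5 lines (22.7%, against 13.4% of all probe sets) and 8 fell in all 5 (18.2% against 13.2%). The 10 were UGT71B1, UGT71C4, UGT73C1, UGT74D1, UGT76E11, UGT78D1, UGT78D3, UGT80B1, UGT84A3 and UGT84A4, and the 8 were UGT71C2, UGT71C5, UGT72E1, UGT76C1, UGT76C2, UGT85A2, UGT85A4 and UGT88A1. A further 12 were called in no line (27.3% against 28.8%), namely UGT71B8, UGT71C1, UGT71C3, UGT72E2, UGT72E3, UGT73B1, UGT73C2, UGT76D1, UGT76E1, UGT76E2, UGT84B1 and UGT84B2. Of the rest, 9 rose in 1 to 4 lines without falling in another, 3 fell in 1 to 4 lines without rising in another, and 2 (UGT71B6 and UGT73B4) rose in flu and fell in other lines. The calls of 4 genes, UGT71B5, UGT73C7, UGT73D1 and UGT76B1, were made in flu alone (9.09% against 6.61%). Of these, UGT73C7 and UGT73D1 also passed the test of the difference between the changes in flu and WT, while UGT71B5 (1.05 ± 0.41, adjusted p = 0.124) and UGT76B1 did not. UGT72B3 was called higher in all lines but flu (0.08 in flu and 0.73 ± 0.15 in WT), a difference of -0.65 ± 0.21 that did not pass (adjusted p = 0.0594). Of the 12 genes with a mean under 5, 3 were called in any line, and of the 32 with a higher mean, 29. The shares of all probe sets under and over that mean were not counted, so these counts show nothing particular to UGT genes. The 5 comparisons do not share arrays, but they share the estimate of the spread.

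In flu 30 of 44 genes were called (68.2%, against 48.1% of all probe sets), 20 higher (45.5% against 23.0%) and 10 lower (22.7% against 25.1%). In mbs1-1 23 were called (52.3% against 44.6%), 13 higher (29.5% against 25.9%) and 10 lower (22.7% against 18.8%). In RNAi-MBS2/mbs1-1 there were 24 (54.5% against 45.6%), 12 in each direction (27.3%, against 21.2% higher and 24.5% lower). In 35S:MBS1 there were 25 (56.8% against 47.0%), 14 higher (31.8% against 22.0%) and 11 lower (25% against 25.0%). Changes of at least 1 numbered 16 in flu (19.7% of all probe sets), 15 in 35S:MBS1 (17.3%), 15 in RNAi-MBS2/mbs1-1 (15.3%) and 16 in mbs1-1 (15.8%). In flu the share of UGT genes that rose stood well above that of all probe sets, while in all lines the share that fell stood within 4 percentage points of it.

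The median change over the UGT genes was 0.20 in flu, beside -0.05 over all probe sets. In the others it was 0.18 beside 0.10 (mbs1-1), -0.13 beside -0.10 (RNAi-MBS2/mbs1-1) and -0.12 beside -0.08 (35S:MBS1). For mbs1-1 the median of all probe sets became 0.02 after median centring of the arrays and -0.01 after quantile normalization.

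In flu, UGT76E12 rose most, to 9.92, 9.90 and 10.66 at 3 h, against 5.18, 6.5 and 4.5 at 0 h (4.77 ± 0.38, adjusted p = 7.46e-11). UGT73C1 read 8.13, 7.66 and 8.56 at 3 h, against 3.59, 3.81 and 3.45 at 0 h (4.50 ± 0.30, adjusted p = 2.23e-12). UGT76E11 read 11.17, 11.06 and 11.06 at 3 h, against 7.28, 7.93 and 7.02 at 0 h (3.69 ± 0.21, adjusted p = 2.24e-13). UGT73B4 was among the 4 largest rises in flu alone and is described with the flu comparison. UGT85A4 had the deepest fall, with 5.85, 5.82 and 6.13 at 3 h, against 8.78, 8.94 and 9.29 at 0 h (-3.07 ± 0.14, adjusted p = 3.07e-15). The next falls in size were those of UGT88A1, with 9.25, 9.53 and 8.78 at 3 h, against 11.75, 11.61 and 11.71 at 0 h (-2.50 ± 0.15), of UGT72E1, with 6.52, 6.23 and 6.85 against 8.02, 8.47 and 8.32 (-1.74 ± 0.17), and of UGT71C2, with 4.87, 5.08 and 5.64 against 6.06, 6.01 and 6.56 (-1.02 ± 0.18). For these genes the 3 h and 0 h arrays did not overlap.

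In mbs1-1 the rises were led by UGT73C1, at 8.45, 7.80 and 7.29 at 3 h, against 3.81, 3.89 and 4.08 at 0 h (3.92 ± 0.30), and by UGT76E11, at 11.29, 10.94 and 10.92 at 3 h, against 7.84, 8.39 and 7.76 at 0 h (3.05 ± 0.21). UGT71B1, an enzyme of the UGT71 branch, stood next at 9.16, 9.05 and 9.04 at 3 h, against 6.94, 7.06 and 6.85 at 0 h (2.13 ± 0.12, adjusted p = 1.49e-13). The flavonol arabinosyltransferase UGT78D3 read 7.36, 7.21 and 7.15 at 3 h, against 5.27, 5.66 and 5.52 at 0 h (1.76 ± 0.16). Replicate 1, the brightest array of the series, was the highest 3 h array for each of these 4 genes. UGT72E1 read 6.84, 6.92 and 6.83 at 3 h, against 8.79, 8.66 and 8.70 at 0 h (-1.85 ± 0.17). UGT85A4 read 7.06, 6.76 and 6.80 at 3 h, against 8.72, 8.63 and 8.59 at 0 h (-1.77 ± 0.14). UGT88A1 (-1.67 ± 0.15) and UGT71C5 (-1.55 ± 0.15) came next, with 10.07, 9.77 and 9.63 against 11.45, 11.66 and 11.37, and 7.32, 6.96 and 7.22 against 8.76, 8.75 and 8.64. The falls of UGT85A4, UGT88A1, UGT72E1 and UGT71C5 were also the 4 deepest in WT.

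RNAi-MBS2/mbs1-1 gave much the same order of rises. UGT73C1 read 7.81, 7.46 and 7.96 at 3 h, against 5.09, 4.37 and 3.46 at 0 h (3.44 ± 0.30). UGT76E11 read 10.94, 10.70 and 10.72 at 3 h, against 8.39, 8.4 and 7.52 at 0 h (2.68 ± 0.21). UGT78D1 read 13.36, 13.37 and 13.34 at 3 h, against 10.92, 11.43 and 11.63 at 0 h (2.03 ± 0.19), and its 3 h arrays were almost equal. UGT71B1 read 8.80, 8.85 and 8.92 at 3 h, against 7.03, 7.33 and 7.20 at 0 h (1.67 ± 0.12). UGT85A4 fell to 6.43, 6.26 and 6.66 at 3 h, against 9.15, 8.84 and 9.04 at 0 h (-2.56 ± 0.14). UGT71C5, which inactivates abscisic acid, fell further here than in the other lines, to 6.76, 7.14 and 6.89 at 3 h, against 9.33, 8.96 and 8.99 at 0 h (-2.17 ± 0.15, adjusted p = 1.33e-11), though the difference from WT was not called. UGT72E1 stood at -1.91 ± 0.17, with 6.76, 7.10 and 6.55 at 3 h, against 8.98, 8.46 and 8.70 at 0 h.

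35S:MBS1 had UGT73C1 at 7.05, 7.34 and 7.06 at 3 h, against 4.15, 3.48 and 3.76 at 0 h (3.35 ± 0.30), and UGT76E11 at 10.22, 10.55 and 10.27 at 3 h, against 7.64, 7.40 and 7.86 at 0 h (2.71 ± 0.21). UGT78D1 read 13.48, 13.35 and 13.26 at 3 h, against 11.44, 11.08 and 11.19 at 0 h (2.13 ± 0.19), and UGT71B1 8.70, 8.80 and 8.87, against 6.82, 7.08 and 7.13 (1.78 ± 0.12). All 4 had similar changes in RNAi-MBS2/mbs1-1. UGT85A4 read 6.64, 6.57 and 6.34 at 3 h, against 9.23, 9.16 and 8.77 at 0 h (-2.54 ± 0.14). UGT88A1 read 9.55, 9.39 and 9.31 at 3 h, against 11.57, 11.58 and 11.51 at 0 h (-2.14 ± 0.15), and UGT71C5 6.81, 6.71 and 6.85, against 8.87, 8.66 and 8.79 (-1.98 ± 0.15). The cytokinin glucosyltransferase UGT76C2 joined them with 6.77, 6.75 and 6.64 at 3 h, against 8.87, 8.61 and 8.60 at 0 h (-1.97 ± 0.13). For every gene of this paragraph the 3 h and 0 h arrays lay apart.

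**Figure D2:**
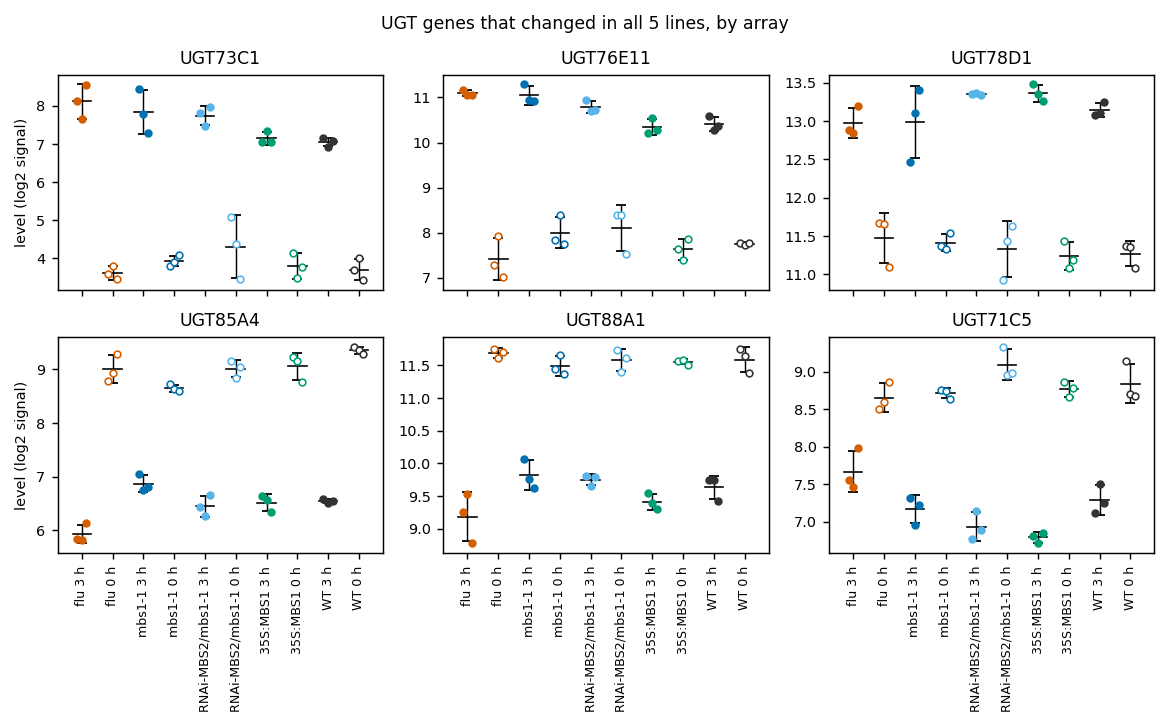
Level (log2 signal, y axis) of 6 UGT genes called in all 5 lines, by array (points), with the group mean ± SD (black, n = 3); filled points are 3 h and open points 0 h of each line. In every line all 3 h arrays of UGT73C1, UGT76E11 and UGT78D1 lie above the 0 h arrays, and those of UGT85A4, UGT88A1 and UGT71C5 below them.

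By the small molecules they are known to act on, the genes were grouped as follows, and the counts stand beside 21.1% of all probe sets higher and 24.4% lower in WT and 23.0% higher and 25.1% lower in flu. The flavonol 3-O-rhamnosyltransferase UGT78D1 and the flavonol 3-O-arabinosyltransferase UGT78D3 were the 2 of 3 flavonoid genes that rose, and they did so in each line, UGT78D3 least in flu (0.97 ± 0.16) and most in mbs1-1 (1.76 ± 0.16), with 1.39 ± 0.16 in WT. UGT71C1, the third, stayed between -0.40 and 0.31 and was called in no line. Of the 6 monolignol and hydroxycinnamate genes, 3 rose and 1 fell in WT, and 2 rose and 1 fell in flu. UGT84A3 and UGT84A4, which make glucose esters of hydroxycinnamates, rose in all lines, UGT84A3 between 1.38 in WT and 1.99 in flu and UGT84A4 between 0.68 in WT and 0.97 in flu. UGT72E2 and UGT72E3, the monolignol glucosyltransferases, were called in no line.

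The hormone genes split. Of the 3 cytokinin genes, UGT73C1 rose and UGT76C1 and UGT76C2, which place glucose on the ring nitrogen of cytokinins and so inactivate them, fell in each line. UGT76C2 read 7.33, 7.33 and 7.09 in WT at 3 h, against 8.74, 8.50 and 8.81 at 0 h (-1.44 ± 0.13), and its changes in the other lines lay between -1.97 in 35S:MBS1 and -0.63 in mbs1-1. Of the 3 abscisic acid genes, UGT71C5 fell in all lines and UGT71B6 in all but flu, while UGT71B8 was called in none. Of the 3 auxin genes, UGT74D1 rose in each line, between 0.89 in WT and 1.1 in 35S:MBS1, and UGT84B1 and UGT84B2 were called in none. Of the 4 jasmonate genes UGT76E11 and UGT76E12 rose in WT and flu, while UGT76E1, known to glucosylate a hydroxylated jasmonate, and UGT76E2 stayed between -0.34 and 0.35 over all lines.

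Among the salicylate and defence acid genes UGT74F1, a salicylate glucosyltransferase, rose in flu (0.84 ± 0.17) and WT (0.52 ± 0.17), and its change was called in all lines but 35S:MBS1, where the difference from WT (-0.29 ± 0.23) was not called. UGT76D1, which acts on hydroxylated salicylate, was called in no line. The glucosinolate gene UGT74B1 rose in flu (0.68 ± 0.20) and 35S:MBS1 (0.64 ± 0.20), and the sterol glucosyltransferase UGT80B1 rose in all lines, between 1.13 in flu and 1.40 in WT. UGT71B1, for which no substrate list was used, rose in all lines, with 8.69, 8.72 and 8.78 in WT at 3 h, against 7.09, 7.39 and 6.84 at 0 h (1.62 ± 0.12). UGT71C2 fell in all lines, most in RNAi-MBS2/mbs1-1 (-1.1 ± 0.18) and flu (-1.02 ± 0.18). Of 37 listed genes that supply UDP-sugars only USP, a UDP-sugar pyrophosphorylase, was matched. It rose in mbs1-1 (0.44 ± 0.12, adjusted p = 0.00273) and flu (0.29 ± 0.12, adjusted p = 0.0462), and stood at 0.04 ± 0.12 in WT.

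The UGT85A group held no gene that rose. In WT 4 of its 5 genes fell, all but UGT85A7, and 2 fell in mbs1-1 and 4 in each of the remaining lines, beside 24.4% of all probe sets lower in WT and 18.8% in mbs1-1. Of the differences between mbs1-1 and WT in this group, that of UGT85A4 was called and the others were not. UGT85A5, known for a role in salt tolerance, stood at -1.16 ± 0.26 in WT, where it fell, and at -0.37 in mbs1-1, where it was not called. The call of UGT85A3 in WT (-0.51 ± 0.20, adjusted p = 0.0382) was lost without WT 0 h replicate 1 or 2 or WT 3 h replicate 1 or 2 (adjusted p 0.0218 to 0.142 over all settings).

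The weaker calls of the high light step also rested on single arrays. In flu, the calls of UGT71B5, UGT76C1, UGT85A3, UGT85A5 and UGT74B1 were lost without 0 h replicate 3, and some of them also without 0 h replicates 1 or 2 or 3 h replicates 1 or 3, with adjusted p up to 0.572, 0.191, 0.118, 0.127 and 0.0506. In mbs1-1, UGT76E12 lost its call without 3 h replicate 1 (0.0545). In RNAi-MBS2/mbs1-1, UGT72B3 lost its call without 0 h replicate 1 (up to 0.0801), and UGT85A3 without any of 0 h replicates 1 or 3 or 3 h replicates 1 or 2 (up to 0.118). In 35S:MBS1, UGT74B1 lost its call without 0 h replicate 2 or 3 h replicate 1 (up to 0.0712), UGT85A7 without 0 h replicate 3 or 3 h replicate 2 (up to 0.116) and UGT87A2 without 0 h replicates 1 or 2 or 3 h replicate 2 (up to 0.156).

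The second comparison set flu against WT at 3 h, after the same darkness and high light in both lines. The arrays do not measure singlet oxygen, and its part in the differences was not tested. The largest differences, all higher in flu, were those of UGT73B4, UGT76E12, UGT76B1, UGT73C7 and UGT73D1. Of 44 genes 16 were called (36.4%, against 18.3% of all probe sets), 12 higher in flu (27.3% against 8.66%) and 4 lower (9.09% against 9.65%). A difference of at least 1 was found for 7 of them, all higher in flu (4.41% of all probe sets had one in either direction). The median difference was 0.12 over the UGT genes and -0.05 over all probe sets.

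UGT73B4, known to respond to pathogens and to conjugate foreign compounds, read 9.23, 9.43 and 9.82 in flu at 3 h, against 5.87, 6.82 and 6.85 in WT at 3 h, a difference of 2.98 ± 0.41 (7.88-fold, adjusted p = 9.40e-06). UGT76E12 read 9.92, 9.90 and 10.66 in flu, against 6.85, 7.63 and 7.39 in WT (2.87 ± 0.38, adjusted p = 5.00e-06). Both stood more than 2 log2 units above the highest WT array on every flu array. UGT76B1, which glucosylates isoleucic acid and the defence signals salicylate and N-hydroxypipecolic acid, read 9.37, 9.32 and 9.19 in flu, against 6.56, 7.30 and 7.08 in WT (2.31 ± 0.75, adjusted p = 0.0328). These 6 arrays lay close together. The wide SE takes in the scatter of its 0 h arrays in several lines and of its 3 h arrays in 35S:MBS1 (5.23, 6.68 and 7.49).

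UGT73C7, an enzyme of phenylpropanoid acids with a part in immunity, read 7.05, 6.45 and 7.77 in flu, against 5.27, 5.06 and 5.03 in WT (1.97 ± 0.26, adjusted p = 3.99e-06). Its neighbour UGT73D1 read 5.08, 4.94 and 5.82 in flu, against 3.66, 4.0 and 4.01 in WT (1.39 ± 0.23, adjusted p = 7.62e-05). In both genes flu replicate 3 was the highest and replicate 2 the lowest. The WT arrays of UGT73D1 lay under 5, where signal may be near background. UGT73C1 read 8.13, 7.66 and 8.56 in flu, against 7.15, 6.93 and 7.09 in WT (1.06 ± 0.30, adjusted p = 0.0123). UGT71B6 read 6.98, 6.78 and 6.86 in flu, against 5.97, 6.03 and 5.78 in WT (0.94 ± 0.16, adjusted p = 1.07e-04).

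UGT71B5 (1.03 ± 0.29), UGT76E11 (0.68 ± 0.21), UGT76C2 (0.62 ± 0.13), UGT84A3 (0.57 ± 0.17) and UGT87A2 (0.56 ± 0.17) were the other genes higher in flu. UGT71B5 owed much to 1 array, with 4.75, 4.19 and 6.18 in flu, against 4.21, 3.88 and 3.93 in WT. UGT87A2, known for roles in flowering and in abiotic stress tolerance, was the strongest signal among them, at 12.30, 12.22 and 12.32 in flu, against 11.79, 11.82 and 11.56 in WT. The groups did not overlap for UGT87A2 and did for UGT71B5.

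Lower in flu were UGT72B3, UGT85A4, UGT78D3 and UGT88A1, each by less than 1. UGT72B3, a relative of a monolignol and xenobiotic glucosyltransferase, read 6.45, 6.25 and 6.21 in flu, against 6.80, 6.91 and 7.21 in WT (-0.67 ± 0.15, adjusted p = 0.00229). UGT85A4 read 5.85, 5.82 and 6.13 in flu, against 6.58, 6.51 and 6.54 in WT (-0.61 ± 0.14, adjusted p = 0.00302). UGT78D3 read 6.34, 6.28 and 6.57 in flu, against 7.09, 6.75 and 6.96 in WT (-0.54 ± 0.16, adjusted p = 0.0196). These 3 had groups without overlap, whereas UGT88A1 (-0.45 ± 0.15, adjusted p = 0.0377) did not, with 9.25, 9.53 and 8.78 in flu, against 9.74, 9.74 and 9.43 in WT.

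By phylogenetic group, 4 of 6 group D genes (the UGT73 genes) were higher in flu and none lower, 4 of 8 group H genes (UGT76) were higher and none lower, and 2 of 14 group E genes (UGT71, UGT72 and UGT88) were higher and 2 lower. Of 7 group L genes (UGT74 and UGT84) 1 was higher and none lower. In 2 groups genes were lower only, 1 of 5 in group G (UGT85) and 1 of 2 in group F (UGT78). Group J held only UGT87A2, which was higher, and the sterol type only UGT80B1, which was not called. Over all probe sets 8.66% were higher and 9.65% lower. By role, 3 of the 4 xenobiotic and stress genes were higher, all but UGT73B1 (-0.13). Of the 3 flavonoid genes 1 was lower and none higher. Group medians were 1.23 for group D, 0.52 for group H, -0.01 for group E, 0.13 for group L, -0.14 for group G and -0.35 for group F. The median over all probe sets was -0.05.

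**Figure D3:**
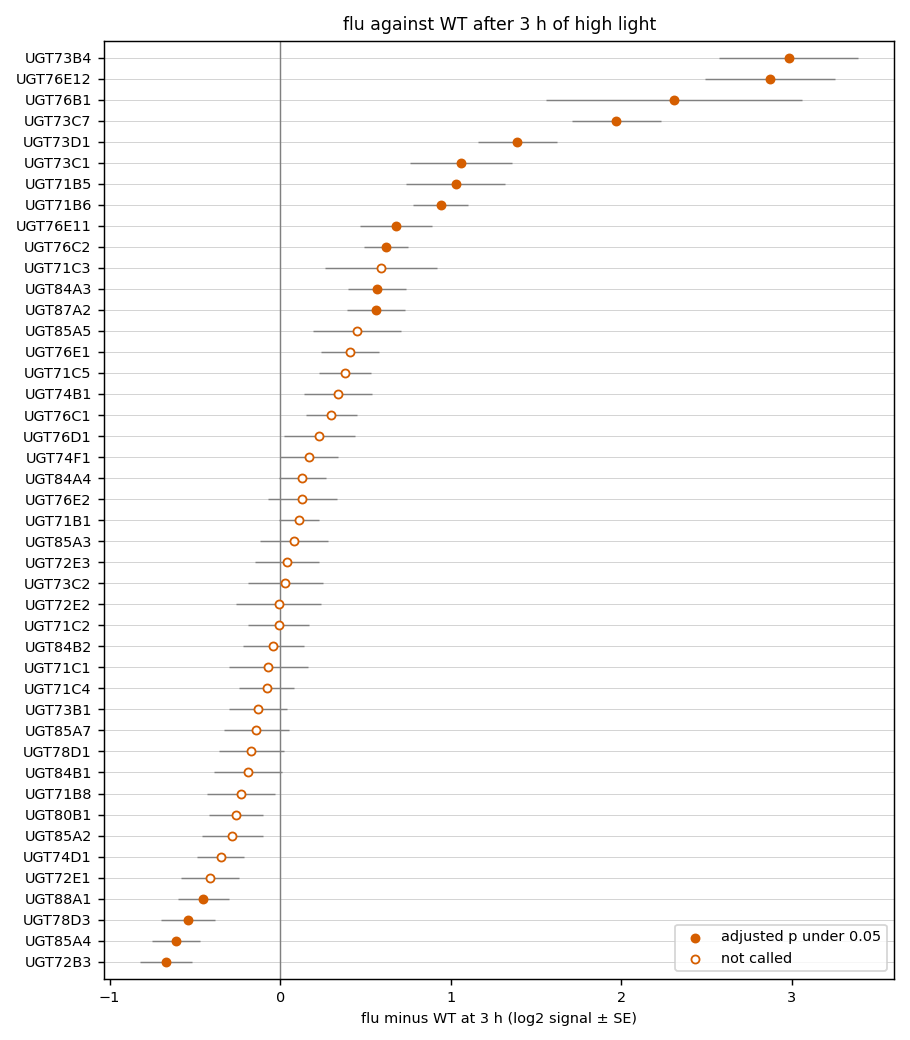
Difference between flu and WT at 3 h (log2 signal ± SE, x axis) for the 44 UGT genes (rows, ordered by the difference); filled points passed an adjusted p under 0.05. Of the filled points 12 lie above 0, up to UGT73B4 (2.98), and 4 below, down to UGT72B3 (-0.67).

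Single arrays decided part of these calls, and the count fell to 10, with 6 higher and 4 lower, without flu 3 h replicate 3. UGT76B1 was called only with all 6 arrays in the fit, and not even then with the trended robust prior (adjusted p up to 0.109 over all settings). UGT73C1 lost its call without flu replicate 3 (up to 0.0922), UGT71B5 without flu replicate 3 or WT replicate 2 (up to 0.16), and UGT87A2 without flu replicates 1 or 3 or WT replicate 3 (up to 0.0997). UGT76E11 and UGT84A3 lost theirs without flu replicates 1 or 3 or WT replicates 2 or 3 (up to 0.0983 and 0.0764), UGT78D3 without flu replicates 1 or 2 or WT replicates 1 or 3 (up to 0.0964), and UGT88A1 without flu replicates 1 or 3 or WT replicates 1 or 2 (up to 0.313). UGT73B4, UGT76E12, UGT73C7, UGT73D1, UGT71B6, UGT76C2, UGT72B3 and UGT85A4 were called without any one of the 6 arrays.

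On the actin control probes the gap between 3' and 5' signal was 6.93 to 6.98 in flu at 3 h and 6.61 to 6.82 in WT at 3 h, while that of GAPDH overlapped at 3.29 to 3.79 and 3.42 to 3.62. The mean level of the 3 green markers was 11.75 to 12.28 in flu at 3 h and 12.45 to 12.48 in WT at 3 h, and that of the 2 root markers 3.61 to 3.86 and 3.88 to 3.99. The part of these shifts in the UGT differences was not tested.

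At 0 h 1 of 44 genes was called between flu and WT, 2.27% against 0.506% of all probe sets. The called gene was UGT87A2, lower in flu at 10.79, 11.15 and 10.28, against 11.45, 11.28 and 11.65 in WT (-0.72 ± 0.17, adjusted p = 0.0488). That call was lost without flu replicates 1 or 3 or any WT replicate (adjusted p up to 0.681). UGT73B4 read 5.21, 5.86 and 4.74 in flu at 0 h, against 6.67, 6.03 and 6.58 in WT, a difference of -1.16 ± 0.41 that was not called (adjusted p = 0.302). All 3 flu arrays lay below all WT arrays there, the opposite of 3 h.

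The third comparison tested the difference of responses directly, as the high light change in flu minus that in WT. It shares its 3 h arrays with the comparison above and does not add to it as separate evidence. Of 44 genes 7 were called, all with a higher change in flu (15.9%, against 8.41% of all probe sets in either direction and 5.13% higher), and none with a lower one (3.28% of all probe sets). They were UGT73B4 (4.14 ± 0.58, adjusted p = 4.38e-05), UGT76E12 (2.64 ± 0.54, adjusted p = 0.00219), UGT73C7 (1.92 ± 0.36, adjusted p = 0.00107), UGT71B6 (1.48 ± 0.22, adjusted p = 9.82e-05), UGT73D1 (1.36 ± 0.32, adjusted p = 0.00775), UGT87A2 (1.27 ± 0.24, adjusted p = 0.00101) and UGT76E11 (1.03 ± 0.30, adjusted p = 0.033). UGT76B1 had a difference of 2.18 that was not called. It rose by 2.86 ± 0.75 in flu, where the 0 h arrays read 6.38, 8.30 and 4.63, and that change was 3.79 without flu 0 h replicate 2 and 1.95 without flu 0 h replicate 3. In WT it stood at 0.68 without a call.

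These genes differed in how the responses came apart. UGT73B4 rose by 4.22 ± 0.41 in flu and stood at 0.09 in WT, where the 3 h and 0 h arrays overlapped. UGT73C7 and UGT73D1 rose in flu (1.98 ± 0.26 and 1.31 ± 0.23) and stood at 0.06 and -0.05 in WT. At 0 h UGT73C7 read 5.08, 5.19 and 5.04 in flu and 5.06, 5.08 and 5.04 in WT. UGT73D1 read 4.17, 4.04 and 3.69 in flu at 0 h and 4.26, 3.81 and 3.74 in WT. UGT71B6, which inactivates abscisic acid by adding glucose, rose by 0.80 ± 0.16 in flu, where it read 6.98, 6.78 and 6.86 at 3 h and 5.90, 6.21 and 6.1 at 0 h, and fell by 0.68 ± 0.16 in WT, where it read 5.97, 6.03 and 5.78 at 3 h and 6.66, 6.45 and 6.74 at 0 h. It also fell in 35S:MBS1 (-0.59 ± 0.16), mbs1-1 (-0.80 ± 0.16) and RNAi-MBS2/mbs1-1 (-0.87 ± 0.16).

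UGT76E12 and UGT76E11 rose in both lines, UGT76E12 by 4.77 ± 0.38 in flu and 2.12 ± 0.38 in WT and UGT76E11 by 3.69 ± 0.21 in flu and 2.66 ± 0.21 in WT. UGT87A2 rose by 1.54 ± 0.17 in flu and stood at 0.26 in WT, and its lower level in flu at 0 h is part of that difference. Mean 0 h levels were also lower in flu, without a call, for UGT73B4 (5.27 against 6.43 in WT), UGT71B6 (6.07 against 6.61) and UGT76E11 (7.41 against 7.76). They were not lower for UGT76E12 (5.39 against 5.16), UGT73C7 (5.10 against 5.06) and UGT73D1 (3.97 against 3.94). The call of UGT76E11 was lost without flu 0 h replicates 1 or 3, flu 3 h replicates 1 or 3, any WT 0 h replicate or WT 3 h replicates 2 or 3 (adjusted p 0.0049 to 0.0928 over all settings). The other 6 kept their call without any one of the 12 arrays.

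**Figure D4:**
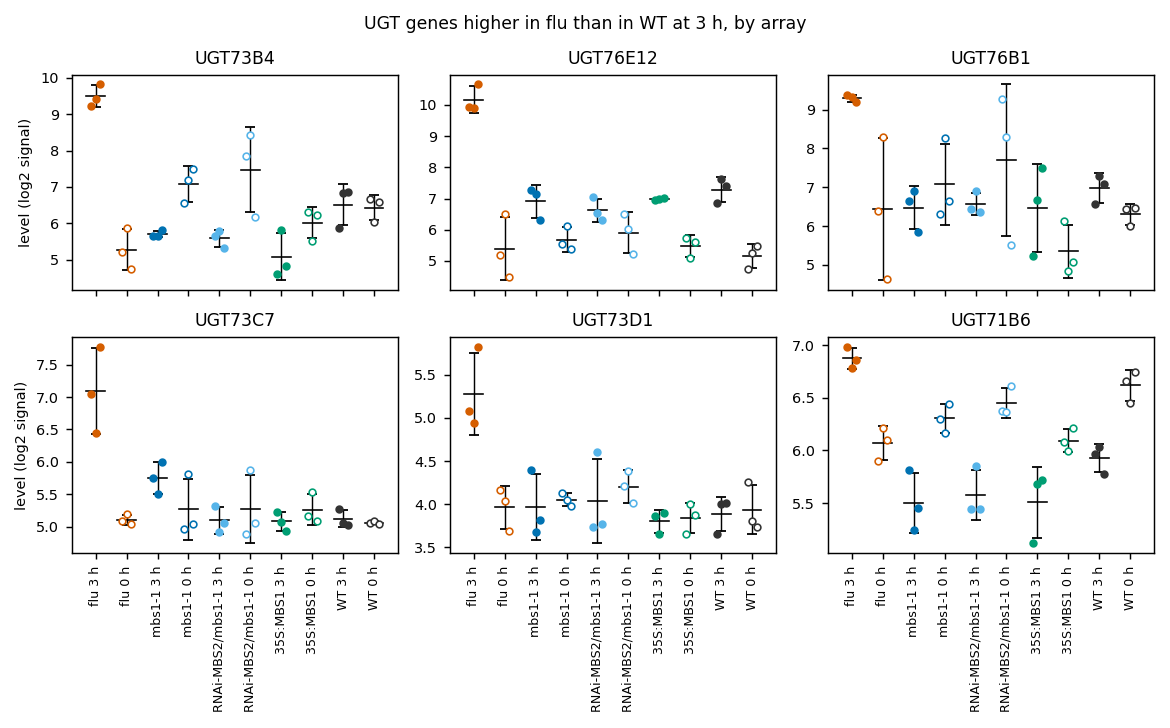
Level (log2 signal, y axis) of 6 UGT genes that were higher in flu than in WT at 3 h, by array (points), with the group mean ± SD (black, n = 3); filled points are 3 h and open points 0 h of each line. The 3 flu 3 h arrays of UGT73B4 (9.23 to 9.82) lie above every other array, and the 0 h arrays of UGT76B1 scatter from 4.63 to 8.30 in flu.

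Few UGT genes separated the lines with altered MBS1 from WT. At 3 h, limma called 1 of 44 genes in mbs1-1 (2.27%, against 0.435% of all probe sets). It called 0 in RNAi-MBS2/mbs1-1 (against 0.220%) and 0 in 35S:MBS1 (against 0.0176%). A gene without a call may still differ. The median difference in mbs1-1 was 0.19 over the UGT genes and 0.08 over all probe sets. Without mbs1-1 3 h replicate 1, the brightest array, these medians were 0.07 and 0.01. The called gene was UGT76C2, with 7.89, 7.87 and 7.91 in mbs1-1, against 7.33, 7.33 and 7.09 in WT (0.64 ± 0.13, adjusted p = 0.0235). It lost its call without mbs1-1 3 h replicates 1 or 2 or WT 3 h replicates 2 or 3 (up to 0.127). In 35S:MBS1 the same gene read 6.77, 6.75 and 6.64, below all WT arrays, with a difference of -0.53 ± 0.13 that was not called (adjusted p = 0.373), and in RNAi-MBS2/mbs1-1, where MBS1 is mutated as well, it read 7.45, 7.27 and 7.06, overlapping WT.

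As differences of response from WT, limma called 1 gene in mbs1-1 (2.27%, against 0.0528% of all probe sets). It called 0 in RNAi-MBS2/mbs1-1 (against 0.0528%) and 0 in 35S:MBS1 (against 0.00%). UGT85A4 fell less in mbs1-1 than in WT, by 1.04 ± 0.20 (adjusted p = 0.0432). That call was lost without any WT 3 h or mbs1-1 0 h replicate, WT 0 h replicates 1 or 2, or mbs1-1 3 h replicate 1 (adjusted p up to 0.486).

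UGT73B4, raised in flu, fell in both lines with the MBS1 mutation. In mbs1-1 it read 5.64, 5.66 and 5.81 at 3 h, against 6.55, 7.20 and 7.5 at 0 h, and fell by 1.38 ± 0.41 (adjusted p = 0.0076). In RNAi-MBS2/mbs1-1 it read 5.66, 5.78 and 5.32 at 3 h, against 7.84, 8.42 and 6.16 at 0 h, and fell by 1.89 ± 0.41 (adjusted p = 4.62e-04). Over all settings the change there lay between -2.54 and -1.41, and it was -2.54 without 0 h replicate 3. In 35S:MBS1 it read 4.60, 5.82 and 4.82 at 3 h, against 6.30, 5.52 and 6.22 at 0 h, a change of -0.93 that was not called. The differences of these changes from that in WT were -1.98 ± 0.58 for RNAi-MBS2/mbs1-1 (adjusted p = 0.335) and -1.47 ± 0.58 for mbs1-1 (adjusted p = 0.31), neither called, so a fall particular to these lines was not shown.

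UGT76E12 rose in flu, mbs1-1 (1.23 ± 0.38), 35S:MBS1 (1.5 ± 0.38) and WT, and stood at 0.72 in RNAi-MBS2/mbs1-1 without a call. Its 3 h arrays there read 7.04, 6.53 and 6.31, against 6.49, 6.02 and 5.21 at 0 h. The difference of that change from WT was -1.40 ± 0.54 (adjusted p = 0.514), and did not pass. UGT76B1 stood at -1.13 in RNAi-MBS2/mbs1-1, -0.61 in mbs1-1 and 1.12 in 35S:MBS1, none called, with 0 h arrays that spread from 5.52 to 9.28 in RNAi-MBS2/mbs1-1.

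Many UGT genes stand side by side in the genome, and 26 of the 44 lay in 11 runs in which the next member was at most 5 protein-coding genes away. Of the 15 adjacent pairs, 5 were both called in the same direction in WT, 2 in opposite directions, 5 had 1 gene called and 3 none. In flu these counts were 7, 1, 5 and 2, and between flu and WT at 3 h they were 2, 0, 5 and 8. Over 11420 pairs of next genes at most 5 places apart, taken across all genes with a single probe set, both were called in the same direction in 12.3% in WT, 13.6% in flu and 2.19% between flu and WT at 3 h, and in opposite directions in 9.98%, 10.7% and 1.58%. In the same order, 46.8%, 47.9% and 28.9% of these pairs had 1 gene called, and 30.9%, 27.8% and 67.3% had none. Neighbouring UGT genes are close relatives, and whether probes of one also bind the other's transcript was not tested. No UGT probe set carried the maker's suffix for shared probes.

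Opposite neighbours were UGT71C5 and UGT71C4, at -1.56 and 0.76 in WT and at -0.99 and 0.85 in flu, with a Pearson correlation of -0.92 over the 10 group means. UGT71B1 and UGT71B6 went opposite ways in WT (1.62 and -0.68) and rose together in flu (1.62 and 0.80). UGT73C1 rose by 3.35 in WT, and its neighbour UGT73C2 stood at -0.22 with a signal near the low end of the scale. Pairs that moved alike included UGT73D1 and UGT73C7, both called higher in flu than in WT at 3 h (correlation 0.93). Others were UGT84A3 and UGT84A4 (0.96), UGT76C2 and UGT76C1 (0.92) and UGT76E12 and UGT76E11 (0.79). UGT85A5 and both its neighbours, UGT85A3 (0.85) and UGT85A2 (0.82), fell in WT and in flu. The correlations describe 10 group means that share arrays and normalization.

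**Figure D5:**
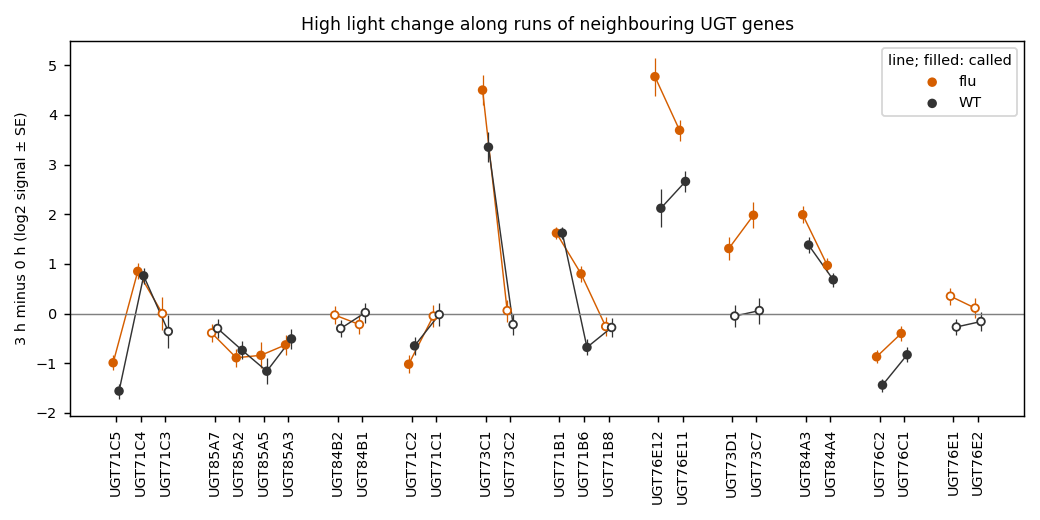
High light change (3 h minus 0 h, log2 signal ± SE, y axis) in flu and WT for the 26 UGT genes that lie in 11 runs of neighbours (x axis, lines join genes of a run in genome order); filled points were called. UGT71C5 and UGT71C4 point opposite ways in both lines, and UGT73D1 and UGT73C7 are raised in flu and near 0 in WT.

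UGT73B4 had the largest difference between flu and WT at 3 h, and the genes whose pattern over the 10 group means was most like it were sought among 13512 other single-gene probe sets. The 5 closest were AT3G19660 (Pearson r = 0.974), AT5G67350 (0.969), AT5G51830 (0.967), UGT73B5 (0.964) and AT1G62045 (0.961). In the same order their differences between flu and WT at 3 h were 0.98, 0.65, 1.57, 1.83 and 0.84, which are a description only, since the genes were chosen on the same group means. UGT73B5 is the close relative beside UGT73B4.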

How the data were processed

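RNA was measured on Affymetrix ATH1 arrays. The deposited values are log2 signals that the authors made with RMA (affy), per the submitters' processing notes. Versions, and whether all arrays were normalized together, were not given in the sources used here. Of the probe sets, 64 controls were left out. Names came from the GEO platform annotation, and all 44 UGT symbols matched RefSeq's by gene ID; 3 further probe sets shared by several genes, 1 or more of them a UGT, and genes with a UGT name only as a synonym were not used. No raw scans, detection calls or sequences were used.

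A model with 10 group means was fitted to 30 arrays with limma 3.58.1 in R 4.3.3, after tests on simulated data; Python 3.11.15 and matplotlib 3.10.9 drew the plots. The UGT genes and lists were chosen with earlier results of these data known. Values of every array are given for the 4 called genes that changed most in each direction in each line, up to 6 each way for flu against WT at 3 h and for the difference of the flu response, and up to 3 elsewhere; other genes are given by change or count. Role lists were matched by symbol; none of the 2 brassinosteroid genes listed was matched. Within groups, arrays correlated at 0.983 to 0.996, and none were identical.

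Same-numbered replicates deviated together (each correlation over 0.1) in 1 of 10 pairs of groups, 35S:MBS1 at 3 h and 0 h; nothing in the labels ties the numbers. Alternatives were the compared arrays alone, a replicate block, a filter on a mean under 5, quantile normalization, median centring, a trended robust prior, single-gene probe sets, an adjusted p under 0.01, each array left out, and both brighter arrays left out.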

Additional observations from a re-analysis of the deposited data

Results flagged for a closer look

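In 7 UGT genes the high light change in flu differed from that in WT by the test of the difference itself. The differences, flu minus WT, were 4.14 for UGT73B4, 2.64 for UGT76E12, 1.92 for UGT73C7, 1.48 for UGT71B6, 1.36 for UGT73D1, 1.27 for UGT87A2 and 1.03 for UGT76E11. In UGT71B6 the change had opposite signs, 0.80 in flu and -0.68 in WT. UGT85A4 differed between mbs1-1 and WT by 1.04, with a change of -1.77 in mbs1-1 and -2.81 in WT, and mbs1-1 3 h replicate 1 and WT 0 h replicate 1, the brighter arrays, both enter that value.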

How the results depend on the processing

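Of 152 calls of single UGT genes over the 14 comparisons, 128 held in every alternative other than the stricter threshold, and none turned its direction. The counts of called genes for the high light change of the 5 lines stayed within 1.5-fold of those reported in all alternatives. For flu against WT at 3 h the 16 calls became 8 at an adjusted p under 0.01 and 10 to 15 with single arrays left out. The 1 call between flu and WT at 0 h became 0 with the compared arrays alone, the replicate block, quantile normalization, median centring, single-gene probe sets only, an adjusted p under 0.01 or both brighter arrays left out, and 0 to 1 with single arrays left out. The 1 call between mbs1-1 and WT at 3 h became 0 with the compared arrays alone, an adjusted p under 0.01 or both brighter arrays left out, and 0 to 1 with single arrays left out. The 1 call for the difference of the mbs1-1 response became 0 with the compared arrays alone, the replicate block, quantile normalization, median centring, an adjusted p under 0.01 or both brighter arrays left out, and 0 to 1 with single arrays left out. For the difference of the RNAi-MBS2/mbs1-1 response the count was 0 to 1, with UGT73B4 called without RNAi-MBS2/mbs1-1 0 h replicate 3. The replicate block changed no other call of a UGT gene. With single arrays left out the difference of the flu response had 6 to 10 calls. The causes of these changes were not tested. Genes with a mean under 5 may lie near background. This limits what can be said of the 9 of them called in no line and of the 3 called, UGT71B5, UGT73D1 and UGT85A7. The filter on a mean under 5 left them untested. With it the calls were 28 in flu (30 without it), 24 in 35S:MBS1 (25) and 14 for flu against WT at 3 h (16).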

Other observations

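The flu arrays at 0 h scattered widely in several UGT genes. UGT76B1 read 6.38, 8.30 and 4.63 in replicates 1, 2 and 3, and UGT76E12 5.18, 6.5 and 4.5. UGT73B4 read 5.21, 5.86 and 4.74, UGT76E11 7.28, 7.93 and 7.02, and UGT71C3 5.70, 7.05 and 5.46. In each of these genes replicate 2 was the highest and replicate 3 the lowest. Replicate 3 was instead the highest in UGT85A5 (5.94, 6.35 and 7.28), UGT85A3 (5.31, 5.01 and 5.92) and UGT73B1 (8.22, 8.47 and 9.12). In RNAi-MBS2/mbs1-1 at 0 h, replicate 3 was the lowest for UGT76B1 (9.28, 8.30 and 5.52), UGT73B4 (7.84, 8.42 and 6.16), UGT76E12 (6.49, 6.02 and 5.21) and UGT76E11 (8.39, 8.4 and 7.52). These genes were picked after their values were seen.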
